A study of Mus musculus with 19 samples.

Results

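The genes described here are 49 mouse genes that drive or brake cell division: 21 of the G1/S transition and DNA replication, 26 of G2 and mitosis (G2/M), and 2 inhibitors of cyclin-dependent kinases. They were matched by symbol to the 51826 gene entries of a liver RNA-seq table. All 49 were found and all 49 passed the filter on low values. Livers came from 19 female Balbc mice, labelled 12 weeks old: 7 nulliparous mice, 6 mice at lactation day 10 and 6 mice at involution day 6, that is, after weaning. The labels name no transgene and no agent, and each library was made from 1 mouse. Mice are named by stage (NUL, nulliparous, LAC, lactation, ID6, involution) and animal number. Expression was given in TPM (transcripts per 1000000), a length-corrected share of all transcripts in a library, so levels could be compared between genes.

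A cell that re-enters the cycle first makes D-type cyclins, which with their kinases release the E2F factors. E2F factors then switch on the genes for E-type cyclins, nucleotide synthesis and the MCM helicase that opens DNA for copying. Later, in G2, a second wave of genes makes the cyclin A and B kinases, the spindle and the machinery that separates chromosomes. That later wave is governed by B-Myb with the MuvB complex and by FOXM1, and many of its promoters hold a short element called the cell cycle genes homology region (CHR), often near CCAAT boxes. Adult hepatocytes are mostly quiescent but can divide again, and p21 (Cdkn1a) and p27 (Cdkn1b) hold the cyclin-dependent kinases in check.

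The promoters of the G2/M and the G1/S genes differed in their letters. RefSeq windows from 250 bases before to 50 bases after the start (GRCm38.p6) were at hand for 39 of the 49 genes. They were searched on both strands for a CHR (TTTGAA or TTCGAA), for CCAAT, and for an E2F site (TTTCCCGC, TTTGGCGC, TTTCGCGC or TTTGCCGC). A CHR stood in the windows of 16 of 20 G2/M genes (80.0%), against 3 of 17 G1/S genes (17.6%) and 21.7% of all 27025 genes with a window. An E2F site stood in those of 1 G2/M gene (5.0%, Cdk1) and 6 G1/S genes (35.3%), against 2.60% of all genes. CCAAT was found at 18 G2/M genes (90%), 10 G1/S genes (58.8%) and 41.1% of all genes. Of the 26 CHR matches, with the one that lies in both windows of Prc1 counted once, 1 overlapped another of these motifs. These are matches of letters, not shown sites of binding.

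Stretches from 180 to 10 bases before the start, written 5′ to 3′ along the gene's strand, are given for genes whose levels are described further on. In each the capitals mark every CHR, CCAAT and E2F match, on either strand, that lies whole within the stretch. Cdc20 (chr4:118437353-118437523, minus strand), Cdk1 (chr10:69352922-69353092, minus strand), Ube2c (chr2:164769749-164769919, plus strand), Mki67 (chr7:135716389-135716559, minus strand) and Top2a (chr11:99024199-99024369, minus strand) show the CHR of G2/M genes. Mcm5 (chr8:75109329-75109499, plus strand) and Mcm6 (chr1:128359715-128359885, minus strand) show the E2F sites of replication genes. GENCODE places the first exon of Cdk1 and of Ube2c slightly further upstream, so that the last 17 and 22 bases of those stretches lie within its gene.
Cdc20: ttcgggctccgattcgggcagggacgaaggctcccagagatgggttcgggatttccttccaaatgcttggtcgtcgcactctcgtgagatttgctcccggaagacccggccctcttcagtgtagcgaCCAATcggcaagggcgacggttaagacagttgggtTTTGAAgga
Cdk1: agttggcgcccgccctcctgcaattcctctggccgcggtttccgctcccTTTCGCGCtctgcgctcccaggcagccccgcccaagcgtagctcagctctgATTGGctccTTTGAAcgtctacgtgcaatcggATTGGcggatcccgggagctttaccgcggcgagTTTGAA
Ube2c: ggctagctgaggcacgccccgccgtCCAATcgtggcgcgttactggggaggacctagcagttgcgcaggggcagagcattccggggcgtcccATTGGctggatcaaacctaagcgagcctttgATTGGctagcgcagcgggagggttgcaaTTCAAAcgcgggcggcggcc
Mki67: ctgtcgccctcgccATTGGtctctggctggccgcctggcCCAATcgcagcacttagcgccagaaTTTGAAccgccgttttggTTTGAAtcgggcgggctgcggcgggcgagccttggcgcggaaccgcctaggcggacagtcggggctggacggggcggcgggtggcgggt
Top2a: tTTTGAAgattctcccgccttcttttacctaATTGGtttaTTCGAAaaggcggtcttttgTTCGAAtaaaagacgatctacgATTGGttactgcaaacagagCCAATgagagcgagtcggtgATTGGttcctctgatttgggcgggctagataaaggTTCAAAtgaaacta
Mcm5: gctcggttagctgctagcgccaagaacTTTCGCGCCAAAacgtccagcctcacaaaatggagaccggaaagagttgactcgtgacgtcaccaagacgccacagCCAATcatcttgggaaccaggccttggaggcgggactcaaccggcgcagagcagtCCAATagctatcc
Mcm6: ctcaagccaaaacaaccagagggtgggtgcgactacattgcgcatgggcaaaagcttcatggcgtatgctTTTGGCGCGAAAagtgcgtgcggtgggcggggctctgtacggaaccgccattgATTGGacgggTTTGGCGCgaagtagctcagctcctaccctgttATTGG

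The place of the CHR varied among these genes. At Cdc20, Cdk1, Ube2c and Top2a the CHR nearest to the start began 18, 15, 29 and 23 bases before it, with a CCAAT box further upstream. Mki67 had a pair, at 116 and 98 bases before the start. Mcm5 held overlapping E2F matches on both strands, 153 and 149 bases before the start, and Mcm6 had the same arrangement at 110 and 106 bases and another match at 47 bases. The 4 G2/M genes with a window and none of these CHR letters in it were Birc5, Ccnb1, Cenpe and Nusap1.

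**Figure D1:**
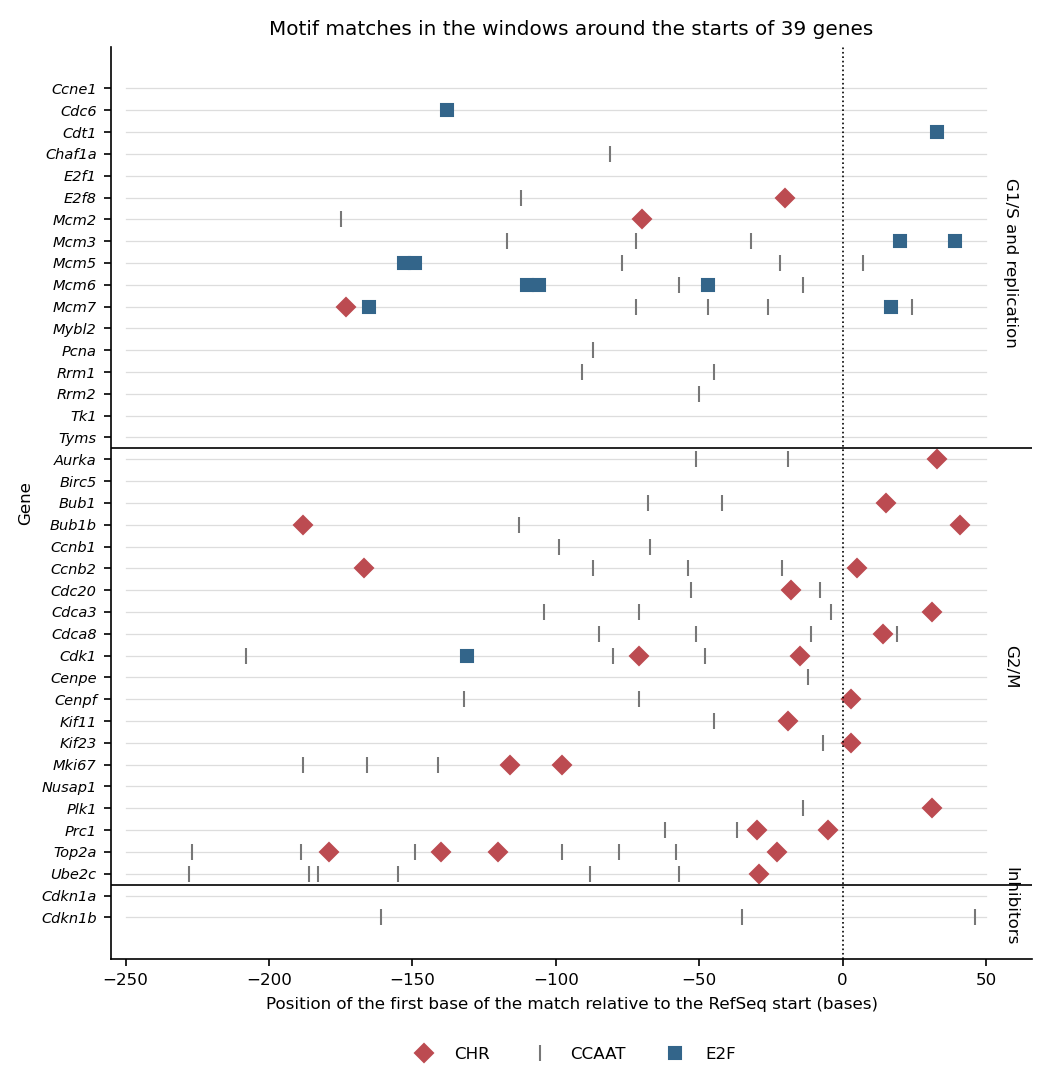
Positions of CHR (diamonds), CCAAT (bars) and E2F (squares) matches in the RefSeq windows of 39 cell cycle genes, each a row, with the x axis giving the position of the first base of a match relative to the start, in bases; 3 genes have 2 windows drawn on 1 row, so the single CHR of Prc1 appears once for each start. CHR matches are found at 16 of the 20 G2/M genes and at 3 of the 17 G1/S genes, and E2F matches at 1 and 6 of them.

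Before the comparisons, 2 features of the mice bear on every result. Animal numbers fell into a range under 200 (3 nulliparous and 3 lactating mice) and a range of 200 and above (4 nulliparous, 3 lactating and all 6 involution mice). The methods name 2 suppliers of mice without saying which mouse came from which, and the labels name no batch. Between the ranges, with stage as a covariate, 16.4% of 16179 genes were higher and 9.14% lower at 200 and above by limma (adjusted p under 0.05). With each library rescaled by its median ratio to the geometric mean of all libraries, the shares were 11.9% and 12.0%. Counts of calls among the 49 genes within each range are therefore given beside the pooled ones. So are summed levels of the G2/M genes and of the hepatocyte, leukocyte and erythroid markers. Other sums, and the counts between stages for further gene lists, are pooled over the ranges. The defining hepatocyte markers were high in every library, with the 8 markers summing to between 68576 and 175839 TPM. That sum moved with stage, at 92939 ± 17408 TPM (SD, n = 7) in nulliparous, 138189 ± 25900 TPM (n = 6) in lactating and 112282 ± 15809 TPM (n = 6) in involution mice, and 6 of the 8 markers were higher at 200 and above. At 200 and above it was 105268 ± 10058 TPM (n = 4) in nulliparous and 160196 ± 13706 TPM (n = 3) in lactating mice. Under 200 it was 76499 ± 6920 TPM (n = 3) in nulliparous and 116181 ± 6013 TPM (n = 3) in lactating mice. Single markers did not all move with the sum. From nulliparous to lactating mice 5 changes were positive and 3 negative, with 1 called higher, beside 2.72% of all genes. From lactation to involution 6 were positive and 2 negative. Of these, 2 were called higher and 1 lower, beside 18.1% and 4.73% of all genes. The part of this sum in the results on the cell cycle genes was not tested. In whole liver, fewer cells of a type and less RNA per cell cannot be told apart.

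G2/M genes were scarce in nulliparous liver. The mean of 18 of the 26 was under 1 TPM, and the stage means ran from 0.0771 TPM for Cdc25c, the phosphatase that activates cyclin B-Cdk1, to 3.11 TPM for Cdk1 itself. At lactation day 10 the mean was under 1 TPM for 8 of the 26, and the highest was 8.22 TPM for Cdc20, which activates the anaphase-promoting complex. At involution day 6 it was under 1 TPM for 23, and the highest was 1.83 TPM, again for Cdk1. G1/S genes stood higher, up to means of 27.1 TPM for Pcna, the sliding clamp of DNA polymerase, and 26.5 TPM for Tk1, a thymidine kinase, in nulliparous liver. The lowest G1/S genes were Mybl2 (B-Myb), at 0.170 TPM in nulliparous mice, and Cdc6, a loader of the MCM helicase, at 0.150 TPM in lactation and 0.122 TPM in involution. Cdkn1a was the higher of the inhibitors in all 3 stages, with means of 18.1, 15.9 and 34.7 TPM.

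**Figure D2:**
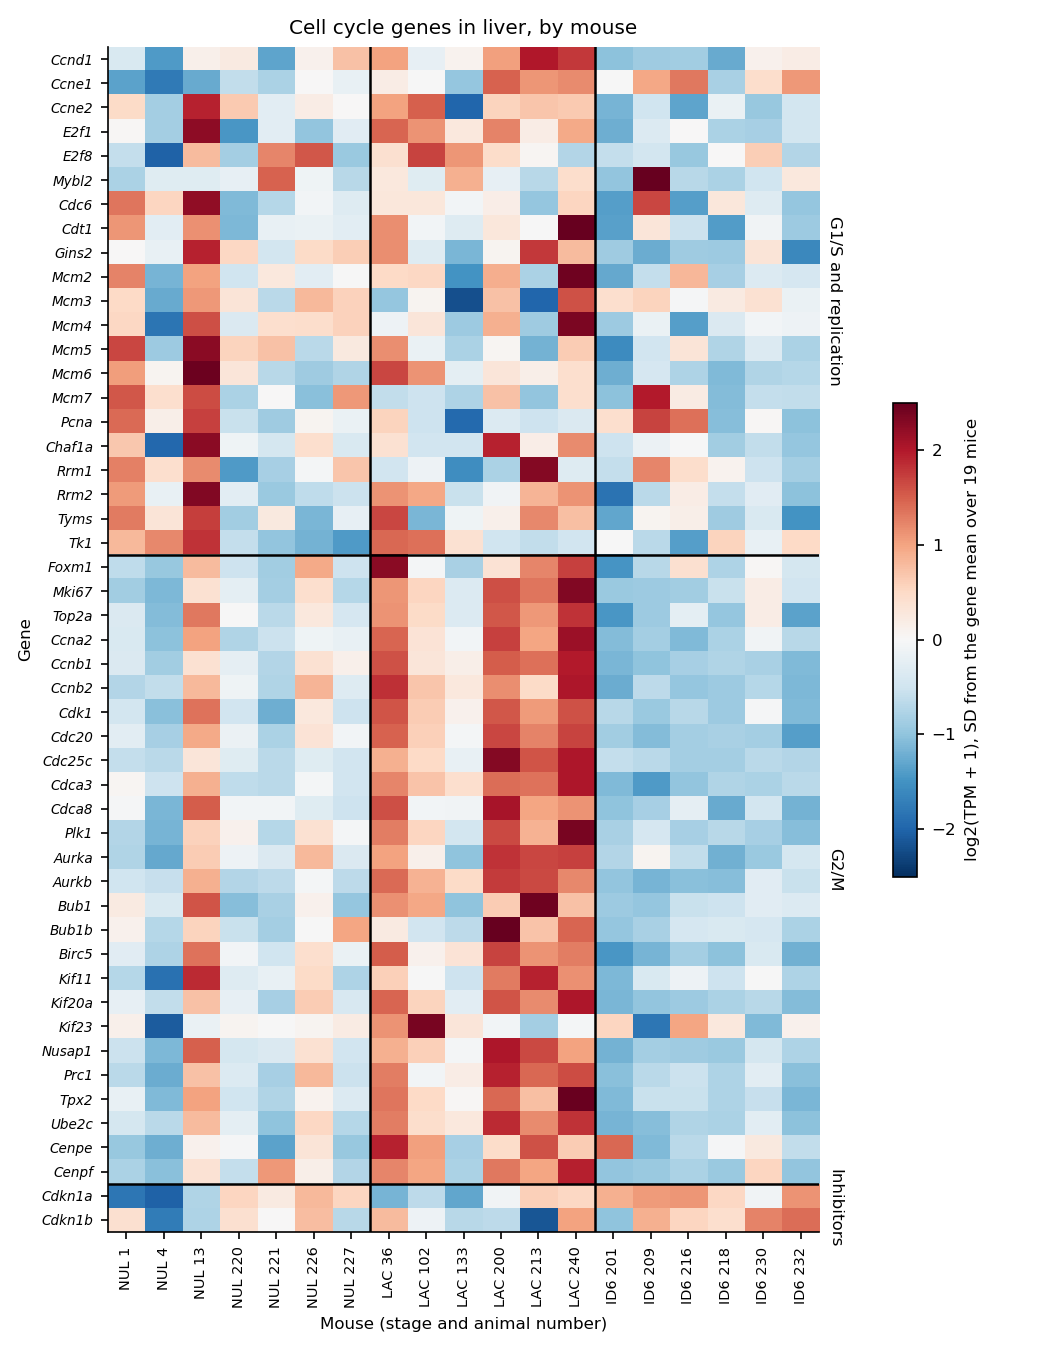
Level of each of the 49 genes (rows, by phase) in each of the 19 mice (columns, by stage and animal number), as log2(TPM + 1) in SD from the gene's mean over all mice; red is above and blue below that mean. Most G2/M rows are red in the lactating mice except LAC_133, the lowest lactating mouse in 23 of 26 of them, and blue in the 6 involution mice, while the G1/S rows show no such block.

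The first comparison asks how the liver of a lactating mouse differed from that of a nulliparous one. At lactation day 10, 16 of the 26 G2/M genes rose and none fell, by limma on log2(TPM + 1) with all 16230 tested genes in the adjustment. Of the 21 G1/S genes, 1 rose, Ccne1, and neither inhibitor was called. For none of the 49 was every lactating mouse above every nulliparous mouse, beside 0.98% of all genes. The 17 calls among 49 genes stand beside 2.72% of all genes called higher, and none of the 49 was called lower, beside 6.49% of all genes. Under median-ratio scaling, 18 of the 49 were called higher, Ccnd1 being added (adjusted p = 0.0378), beside 4.59% of all genes called higher and 4.53% lower. With the range of animal number as a covariate in the fit, 21 were called higher, beside 5.50% of all genes, Ccnd1, Aurka, Cenpe and Cenpf being added (adjusted p = 0.0190, 0.0347, 0.0496 and 0.0467). The main fit takes its spread from all 3 stages. A fit with only the 2 stages compared lost 8 of the 17 calls (Birc5, Ccnb2, Ccne1, Kif20a, Nusap1, Plk1, Prc1 and Tpx2). There 304 of all 16179 genes were called higher. In the main fit the median change was 0.64 on the log2 scale over the G2/M genes, 0.05 over the G1/S genes and -0.03 over all genes tested. All 26 G2/M genes had a positive change, and their ratios of stage means ran from 1.44 to 5.12 with a median of 2.45. With a further demand for a log2 change of at least 1, 3 of the 49 passed (Cdc20, Cdk1 and Ube2c), beside 0.431% of all genes called higher.

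The mitotic kinase and its cyclins rose together. Ccnb1, cyclin B1 (chr13:100778650-100786570), had a lowest, median and highest value of 0.22, 0.70 and 1.33 TPM in the 7 nulliparous mice and of 1.06, 3.04 and 4.34 TPM in the 6 lactating mice. The groups overlapped only where nulliparous mice NUL_13 and NUL_226, at 1.33 and 1.32 TPM, stood above lactating mice LAC_102 and LAC_133, at 1.23 and 1.06 TPM. The change was 1.0 ± 0.21 (SE) on the log2 scale (limma, adjusted p = 0.00440). Cdk1, the kinase that cyclin B1 activates (chr10:69335146-69352938), ran from 1.05 through 2.22 to 8.80 TPM in nulliparous mice and from 3.59 through 8.65 to 10.3 TPM in lactating mice. Nulliparous mouse NUL_13, at 8.80 TPM, stood above 3 of the lactating mice, and mouse NUL_226, at 4.03 TPM, above the lowest of them, LAC_133. Its change was 1.22 ± 0.30 (limma, adjusted p = 0.0155). Ccna2, cyclin A2, and Ccnb2, cyclin B2, rose by 0.73 ± 0.18 and 0.80 ± 0.21 (adjusted p = 0.0153 and 0.0199). Cdc25c rose by 0.36 ± 0.07 (adjusted p = 0.00440) from a nulliparous range of 0.03 to 0.20 TPM to 0.11 to 0.65 TPM. On the log2(TPM + 1) scale a change at such levels is compressed, the ratio of its means being 5.12.

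Genes of the anaphase-promoting complex, which marks mitotic proteins for destruction, gave the largest changes among the 49 on the log2(TPM + 1) scale. By the ratio of stage means, Cdc25c, at 5.12, stood above Ube2c and Cdc20, at 3.41 and 3.25. Cdc20 (chr4:118432901-118437352) was 0.80, 2.09 and 6.31 TPM at its lowest, median and highest in nulliparous mice and 2.33, 9.15 and 12.2 TPM in lactating mice. Only the highest nulliparous mouse, NUL_13, and mouse NUL_226, at 3.56 TPM, stood above the lowest lactating mouse, LAC_133. The change of Cdc20 was 1.39 ± 0.33 (limma, adjusted p = 0.0114). Ube2c, the ubiquitin-conjugating enzyme of that complex, ran from 0.42 through 1.05 to 3.56 TPM in nulliparous mice and from 2.23 through 5.05 to 8.18 TPM in lactating mice, a change of 1.31 ± 0.28 (adjusted p = 0.00636). Cdca3, which works with another ubiquitin ligase at the entry into mitosis, rose by 0.92 ± 0.17 (adjusted p = 0.00209).

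Spindle and cytokinesis genes rose by smaller amounts on the log2(TPM + 1) scale, which compresses changes at low levels. By the ratio of stage means, Aurkb and Prc1, at 2.94 and 2.78, stood above Cdk1, at 2.51, and Kif11, at 1.44, below it. Aurkb, the kinase of the chromosomal passenger complex, had the smallest adjusted p of the 49 (0.000981), with a change of 0.77 ± 0.13. It ran from 0.32 through 0.40 to 1.31 TPM in nulliparous mice and from 1.01 through 1.68 to 2.11 TPM in lactating mice, where only nulliparous mouse NUL_13 overlapped the lactating mice. Its partner Birc5 (survivin) rose by 0.72 ± 0.22 (adjusted p = 0.0482), while Cdca8 (borealin), at 0.34 ± 0.13, was not called (adjusted p = 0.117). The mitotic kinase Plk1 rose by 0.66 ± 0.19, the midzone protein Prc1 by 0.80 ± 0.21, the spindle assembly factor Tpx2 by 0.63 ± 0.16, the kinesin Kif20a by 0.71 ± 0.18 and the spindle protein Nusap1 by 0.44 ± 0.13 (adjusted p from 0.0178 to 0.0465). Changes of the kinase Aurka, the checkpoint genes Bub1 and Bub1b, the kinesins Kif11 and Kif23 and the kinetochore genes Cenpe and Cenpf lay between 0.16 and 0.48 and were not called (adjusted p from 0.0651 to 0.447).

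Mki67, which encodes the proliferation antigen Ki-67 (chr7:135689784-135716361), ran from 0.14 through 0.32 to 0.97 TPM in nulliparous mice and from 0.51 through 1.62 to 2.86 TPM in lactating mice. Of the lactating mice only LAC_133, at 0.51 TPM, lay within the nulliparous range. The change was 0.78 ± 0.18 (limma, adjusted p = 0.0105). Top2a, the topoisomerase that untangles sister chromatids, changed by 0.49 ± 0.17 and was not called (adjusted p = 0.0891), with 0.54 to 2.23 TPM in nulliparous and 0.93 to 2.77 TPM in lactating mice. Foxm1, the transcription factor of this wave, was 0.19, 0.29 and 0.70 TPM in nulliparous mice and 0.22, 0.66 and 1.17 TPM in lactating mice. Lactating mice LAC_213, LAC_240 and LAC_36, at 0.79, 0.96 and 1.17 TPM, stood above every nulliparous mouse, and the others lay within the nulliparous range. The ratio of its stage means was 1.83, and its change of 0.28 ± 0.13 was not called (limma, unadjusted p = 0.0406, adjusted p = 0.190).

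**Figure D3:**
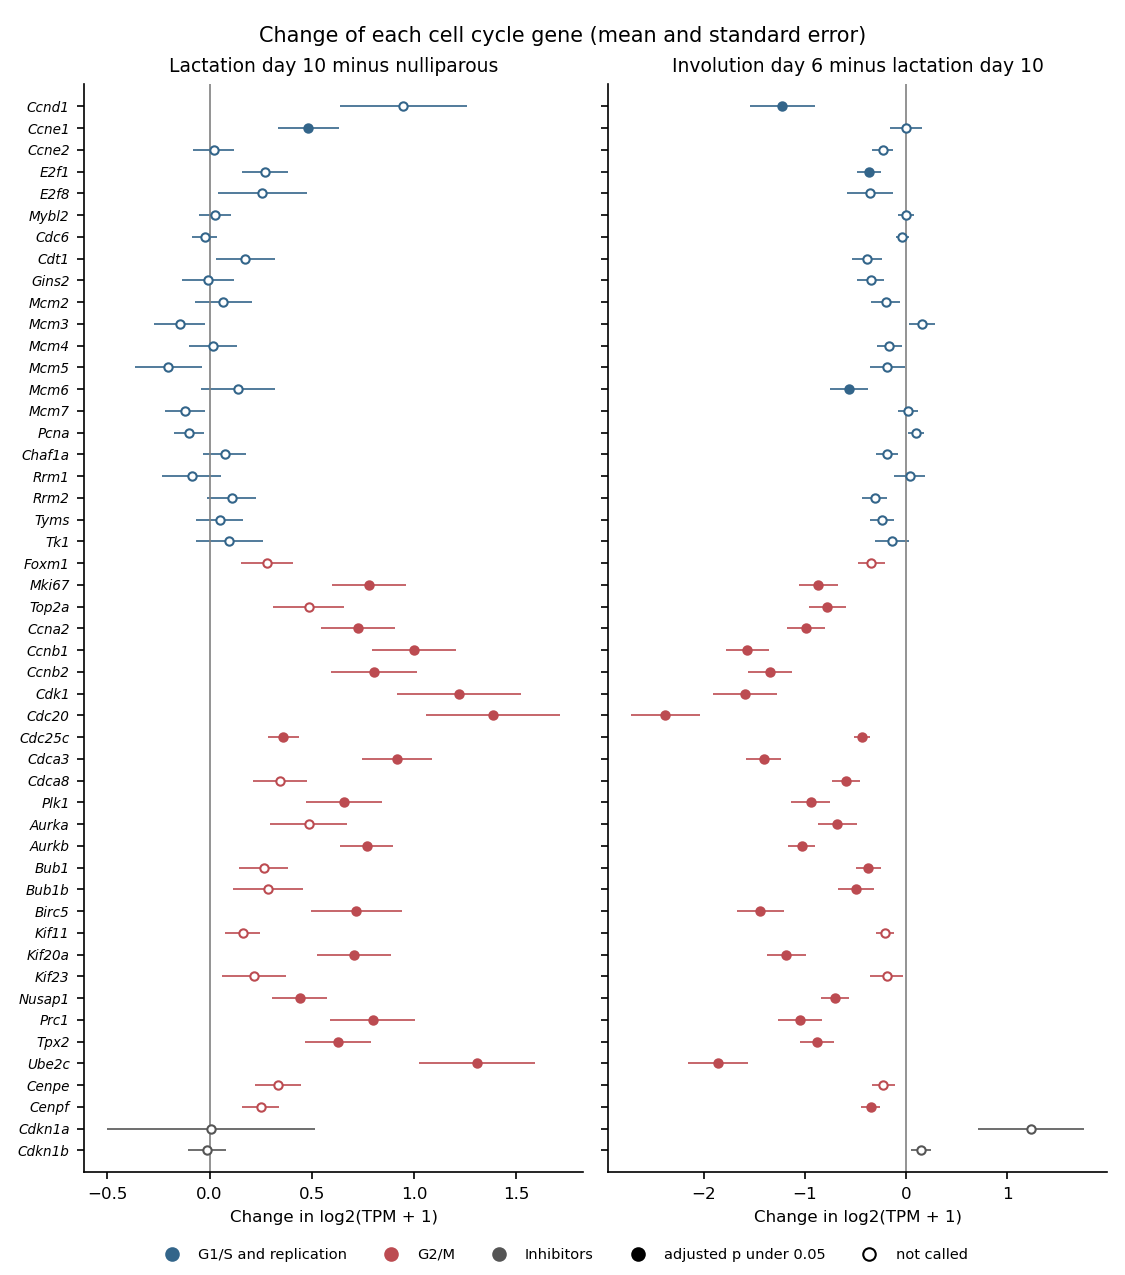
Change of each of the 49 genes in log2(TPM + 1), as the limma estimate with its SE, from nulliparous to lactation day 10 (left) and from lactation day 10 to involution day 6 (right); filled points have an adjusted p under 0.05. All 26 G2/M genes lie to the right of 0 on the left and to the left of 0 on the right, whereas of the G1/S genes only Ccne1 is filled on the left and only Ccnd1, E2f1 and Mcm6 on the right.

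The replication genes were not called. None of the 6 MCM helicase genes (Mcm2 to Mcm7) was called between lactating and nulliparous mice, and their changes lay between -0.20 and 0.14. Mcm2, for example, was 1.69, 2.29 and 3.11 TPM at its lowest, median and highest in nulliparous mice and 1.53, 2.62 and 4.07 TPM in lactating mice, so that the groups covered the same levels. Pcna was 24.3, 26.6 and 30.9 TPM against 21.98, 25.3 and 27.8 TPM, a change of -0.10 ± 0.07 (limma, adjusted p = 0.460). Rrm1 and Rrm2, the subunits of ribonucleotide reductase, Tyms, which makes thymidylate, and Tk1 changed by between -0.09 and 0.11 (adjusted p of at least 0.640). Nor were the licensing genes Cdc6 and Cdt1, the helicase partner Gins2, the chromatin assembly gene Chaf1a, or E2f1, E2f8 and Mybl2 called.

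Cyclins of G1 varied more. Ccnd1, cyclin D1 (chr7:144929931-144939925), was 8.90, 21.5 and 30.5 TPM at its lowest, median and highest in nulliparous mice and 18.1, 35.7 and 61.2 TPM in lactating mice. Lactating mice LAC_213 and LAC_240 were highest, at 61.2 and 53.9 TPM, and LAC_102 and LAC_133 were within the nulliparous range. Its change of 0.95 ± 0.31 missed the threshold (limma, adjusted p = 0.0617). Ccne1, cyclin E1, rose by 0.48 ± 0.15 (adjusted p = 0.0490), from a range of 0.12 to 0.74 TPM to a range of 0.37 to 1.51 TPM. Its relative Ccne2 changed by 0.02 ± 0.10 and was not called (adjusted p = 0.936).

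More of the G2/M genes were called within animal numbers of 200 and above than within numbers under 200. Within that range, 4 nulliparous against 3 lactating mice, 22 of 26 G2/M genes were called higher, beside 2.65% of all genes, and their median change was 0.88, against -0.06 over all genes. Of the 21 G1/S genes 3 were called higher there, with a median change of 0.16. Within numbers under 200, 3 against 3 mice, none of the 49 genes was called, beside 1.91% of all genes called higher and 2.39% lower. The median change of the G2/M genes under 200 was 0.37, with 24 of the 26 changes positive, against 0.0013 over all genes. Summed over the 26 genes, nulliparous mice of 200 and above ran from 13.7 to 34.2 TPM and lactating mice from 59.5 to 83.5 TPM, without overlap. Under 200, nulliparous mice ran from 10.7 to 51.4 TPM and lactating mice from 26.1 to 68.5 TPM. A test of the difference itself, the interaction of stage and range, called none of the 49 genes by limma (smallest adjusted p = 0.226, and 8 with an unadjusted p under 0.05), beside 0.0494% of all genes called higher and 0.0618% called lower.

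Single mice stood apart within their stages. Nulliparous mouse NUL_13 was the highest of its stage in 17 of the 26 G2/M genes and among the highest pair in 25, and it was the highest in 15 of the 21 G1/S genes. Nulliparous mouse NUL_4 was the lowest in 17 G2/M genes. Among the lactating mice, LAC_133 was the lowest in 23 G2/M genes and in 12 G1/S genes, and it had the highest sum of 7 exocrine pancreas markers of all mice (34.2 TPM). That marker sum was at most 10.98 TPM in the other lactating mice, and its part in the result was not tested. The count of genes called higher in lactation was 23 without lactating mouse LAC_133 and 19 without nulliparous mouse NUL_13. Of the 17 calls, 12 held whichever mouse was left out, and 5 were lost in at least 1 case. Ccne1 (10 of 13 mice left out), Nusap1 (10), Birc5 (9), Plk1 (6) and Ccnb2 (1, lactating mouse LAC_36) were those 5, with adjusted p between 0.0519 and 0.112 where lost. Kif20a, Prc1 and Tpx2, among the other 12, lost their calls when the involution mice were left out of the fit.

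**Figure D4:**
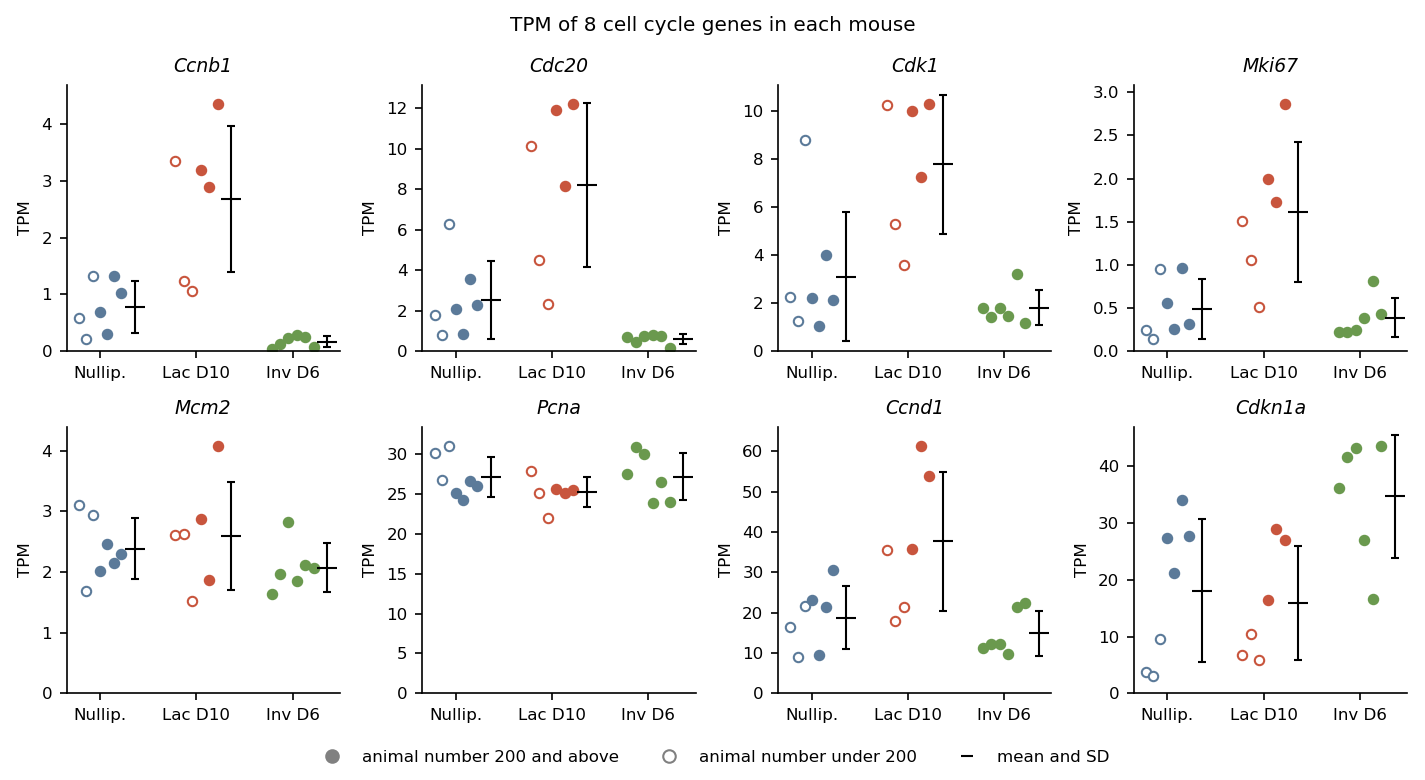
TPM of 8 cell cycle genes in each of the 7 nulliparous (Nullip.), 6 lactation day 10 (Lac D10) and 6 involution day 6 (Inv D6) mice; open points have animal numbers under 200, filled points 200 and above, and bars give the mean and SD. Ccnb1, Cdc20, Cdk1 and Mki67 are high in lactation and low in involution, Mcm2 and Pcna overlap in all 3 stages, and Cdkn1a is lower in every open point than in every filled one.

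The second comparison asks how the liver changed after weaning. At involution day 6 against lactation day 10, 22 of the 26 G2/M genes and 3 of the 21 G1/S genes (Ccnd1, E2f1 and Mcm6) fell, and none of the 49 rose. Those 25 calls stand beside 4.73% of all genes called lower, and 18.1% of all genes were called higher. Under median-ratio scaling 8.35% of all genes were called lower and 8.03% higher, and 30 of the 49 lower, with Cdt1, Foxm1, Gins2, Rrm2 and Tyms added (adjusted p from 0.0237 to 0.0461). With the range of animal number as a covariate 22 were called lower, beside 3.88% of all genes, and Bub1, E2f1 and Mcm6 lost their calls (adjusted p = 0.101, 0.144 and 0.207). The median change was -0.87 on the log2 scale over the G2/M genes, -0.19 over the G1/S genes and 0.10 over all genes tested. All 26 G2/M changes were negative, and stage means were lower by 1.38 to 19.8 times with a median of 4.39 times. The largest ratio was that of Cdc25c, whose involution mean of 0.02 TPM is near the limit of rounding, and the next was 15.4, for Ccnb1. With the demand for a log2 change of at least 1, 11 of the 49 were lower (10 G2/M genes and Ccnd1), beside 0.906% of all genes. For 15 G2/M genes and 2 G1/S genes every involution mouse was below every lactating mouse, as was so for 2.16% of all genes. This comparison and the first share the lactating mice, so their values are given side by side and not as independent results.

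The genes of mitotic entry and exit fell furthest on the log2(TPM + 1) scale. By stage means, Cdk1 was 4.26 times lower, under the G2/M median of 4.39 times. Ccnb1 ran from 0.05 through 0.19 to 0.29 TPM in the 6 involution mice, all of them under the lowest lactating mouse at 1.06 TPM. Its change was -1.57 ± 0.21 (limma, adjusted p = 4.58e-05), and its mean was 15.4 times lower. Cdc20 ran from 0.16 through 0.74 to 0.81 TPM, again under every lactating mouse, a change of -2.38 ± 0.34 (adjusted p = 7.28e-05). Cdk1, at 1.19 to 3.22 TPM, was under the lowest lactating mouse at 3.59 TPM, and fell by 1.59 ± 0.31 on the log2 scale (adjusted p = 0.00121). Ube2c, at 0.28 to 1.29 TPM, fell by 1.86 ± 0.29 (adjusted p = 0.000177). Cdc25c was listed at 0 TPM in involution mice ID6_216 and ID6_218 and at no more than 0.04 TPM in the others.

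The fall covered the rest of the G2/M genes with few exceptions. Cdca3 and Aurkb fell by 1.41 ± 0.18 and 1.03 ± 0.13 (limma, adjusted p = 2.17e-05 and 3.13e-05), Birc5 by 1.44 ± 0.23 and Ccnb2 by 1.34 ± 0.22 (adjusted p = 0.000200 and 0.000218), each with every involution mouse below every lactating one. Mki67, at 0.22, 0.32 and 0.81 TPM in involution, fell by 0.87 ± 0.19 (adjusted p = 0.00272), and only involution mouse ID6_230, at 0.81 TPM, stood above a lactating mouse, LAC_133. Top2a fell by 0.78 ± 0.18 and Ccna2 by 0.99 ± 0.19 (adjusted p = 0.00437 and 0.000858). Kif20a, Prc1, Plk1, Tpx2, Nusap1, Aurka and Cdca8 fell by between 0.59 and 1.18, and Bub1, Bub1b and the kinetochore gene Cenpf by between 0.35 and 0.49 (adjusted p of at most 0.0496). The 4 not called were Foxm1 (-0.34 ± 0.13, adjusted p = 0.0672), Kif11 (-0.21 ± 0.09, adjusted p = 0.0981), Cenpe (-0.23 ± 0.12, adjusted p = 0.171) and Kif23 (-0.19 ± 0.16, adjusted p = 0.428).

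Of the G1/S genes, Ccnd1 fell most, from 18.1 to 61.2 TPM in lactating mice to 9.81, 12.3 and 22.4 TPM at its lowest, median and highest in involution mice. Involution mice ID6_230 and ID6_232, at 21.5 and 22.4 TPM, overlapped the lowest lactating mice. The change was -1.22 ± 0.32 (limma, adjusted p = 0.0103). E2f1, the first E2F activator, ran from 1.30 to 1.86 TPM in lactation and from 0.80 to 1.23 TPM in involution, without overlap, a change of -0.37 ± 0.12 (adjusted p = 0.0314). Mcm6 ran from 0.96 to 2.36 TPM and from 0.49 to 0.87 TPM, also without overlap, a change of -0.57 ± 0.19 (adjusted p = 0.0359). The other 5 MCM genes changed by between -0.20 and 0.15 and Pcna by 0.10 ± 0.08, none of them called. Rrm2, at -0.31 ± 0.12, and Cdt1, at -0.38 ± 0.15, had adjusted p of 0.0784 and 0.0704. Ccne1 ran from 0.42 to 1.41 TPM in involution, within the range of the lactating mice, and was not called (adjusted p = 0.9998).

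Within animal numbers of 200 and above, 3 lactating against 6 involution mice, 24 of the 26 G2/M genes and 6 of the 21 G1/S genes were called lower and none of the 49 higher, beside 3.58% of all genes called lower and 10.5% higher. The median change there was -1.14 over the G2/M genes and 0.10 over all genes. Summed over the 26 G2/M genes, the 6 involution mice ran from 10.3 to 18.3 TPM, under every lactating mouse of either range, the lowest of which was 26.1 TPM. Of the 25 calls, 21 held whichever mouse was left out. The other 4 were Bub1b (lost for 10 of 12 mice), Bub1 (8), Mcm6 (7) and E2f1 (6), with adjusted p between 0.0513 and 0.0967 where lost.

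Against nulliparous liver, involution liver differed in none of the 49 genes by limma at an adjusted p under 0.05 (12 with an unadjusted p under 0.05, of which 10 were lower and 2 higher). Of all genes, 3.44% were called higher and 0.912% lower, or 1.02% and 1.32% under median-ratio scaling, where again none of the 49 was called. The smallest adjusted p was 0.0681, for Birc5, with a change of -0.72 ± 0.22. Ccne1 changed the other way, by 0.48 ± 0.15 (limma, adjusted p = 0.0701). Ccne1 also differed between the ranges of animal number, and all involution mice are of 200 and above. Mean TPM was lower in involution than in nulliparous mice for 24 of the 26 G2/M genes, with a median change of -0.26. Ccnb1 gave -0.57 ± 0.21 and Cdc20 -0.99 ± 0.33 (adjusted p = 0.106 and 0.0848). With a pseudocount of 0.1 in place of 1, Birc5, Ccnb1 and Cdc20 were called lower, beside 145 of all 16230 genes. For these 3 genes the mean level was highest in lactation and lowest in involution, and nulliparous and involution mice were not separated by the test at a pseudocount of 1. Within animal numbers of 200 and above, again no gene of the 49 was called, beside 0.473% of all genes higher and 0.324% lower. The median change there was -0.20 over the G2/M genes and 0.04 over all genes.

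The inhibitors gave a different picture, in which the range of animal number stood out. Cdkn1a (chr17:29090976-29100727) was 3.70, 2.99 and 9.65 TPM in nulliparous mice NUL_1, NUL_4 and NUL_13 and between 21.3 and 34.1 TPM in the 4 nulliparous mice of 200 and above. It was 6.73, 10.5 and 5.93 TPM in lactating mice LAC_36, LAC_102 and LAC_133 and 16.5, 28.9 and 27.0 TPM in lactating mice LAC_200, LAC_213 and LAC_240. The ranges did not overlap. The difference, 200 and above minus under 200 with stage as a covariate, was 1.92 ± 0.24 on the log2 scale (limma, adjusted p = 0.000106). The involution mice, all numbered 200 and above, ran from 16.6 through 38.9 to 43.5 TPM. Against lactating mice the change of 1.23 ± 0.53 was not called (adjusted p = 0.0996), and against nulliparous mice it was 1.24 ± 0.51 (adjusted p = 0.144). Lactating and nulliparous mice differed by 0.01 ± 0.51 (adjusted p = 0.997). Cdkn1b lay between 6.90 and 10.9 TPM in all 19 mice, and its changes between the stages were between -0.01 and 0.15, none of them called. Within animal numbers of 200 and above, the median change of the 2 inhibitors from nulliparous to involution mice was 0.17. With all mice in the fit it was 0.69.

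Of the other 47 genes, 2 differed between the ranges. With Cdkn1a, 2 of the 49 were called higher and 1 lower at 200 and above. Of all genes 16.4% were called higher and 9.14% lower, so the members were called less often than all genes. Ccne1 was higher at 200 and above by 0.46 ± 0.08 (limma, adjusted p = 0.00139), with 0.12 to 0.27 TPM in nulliparous mice under 200 and 0.43 to 0.74 TPM in those of 200 and above. Tk1 was lower at 200 and above by 0.60 ± 0.08 on the log2 scale (adjusted p = 9.77e-05). In the 6 nulliparous and lactating mice under 200 it ran from 28.2 to 38.4 TPM and in the 7 of 200 and above from 19.02 to 23.4 TPM. No G2/M gene was called between the ranges with all mice in the fit. Without nulliparous mouse NUL_13, 9 of the 49 were called higher at 200 and above, 6 of them G2/M genes (Aurka, Kif11, Mki67, Nusap1, Plk1 and Prc1). In that fit 14.2% of all genes were called higher, so the members' share was near that of all genes.

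Further genes of the same pathways, listed by role with earlier results of these data known, were read in the same fits. Their counts are not independent of the results above. Of 51 other G2/M genes tested, 15 rose and none fell in lactation, beside 2.72% of all genes called higher, and 29 fell and none rose in involution against lactation, beside 4.73% called lower. Ect2, which sets the cleavage furrow, rose by 1.03 ± 0.19 and then fell by 1.23 ± 0.19 (limma, adjusted p = 0.00170 and 0.000168). Hmmr, a spindle protein, changed by 0.75 ± 0.16 and -1.01 ± 0.17 (adjusted p = 0.00631 and 0.000269), and the checkpoint kinase Ttk by 0.49 ± 0.10 and -0.61 ± 0.10 (adjusted p = 0.00406 and 0.000373). Ckap2, another spindle protein, changed by 0.88 ± 0.24 and -1.31 ± 0.24 (adjusted p = 0.0244 and 0.000783). Spc24, a kinetochore subunit at 9.27 TPM on average in involution, fell by 0.90 ± 0.16 from lactation and was also lower than in nulliparous mice, by 0.58 ± 0.16 (adjusted p = 0.000563 and 0.0417). Among these genes a CHR stood in the windows of 30 of 43 (69.8%).

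Few of the further G1/S genes were called. Of 33 tested, 1 was called higher and none lower in lactation, beside 2.72% and 6.49% of all genes. In involution against lactation 2 were called higher and 1 lower, beside 18.1% and 4.73% of all genes. These counts were near or under the shares of all genes. Cdk6, a partner kinase of the D cyclins, rose by 0.63 ± 0.15 in lactation (limma, adjusted p = 0.0123). It fell by 0.46 ± 0.16 in involution (adjusted p = 0.0388). Ccnd2, cyclin D2, and Slbp, which binds histone mRNA, rose in involution against lactation by 0.45 ± 0.10 and 0.39 ± 0.09 (adjusted p = 0.00338 and 0.00510). An E2F site stood in the windows of 12 of 27 of these genes (44.4%).

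Among 10 other growth inhibitors, none was called in lactation, beside 2.72% of all genes called higher and 6.49% lower. In involution against lactation the antiproliferative gene Btg1 rose by 0.80 ± 0.19 and Cdkn2d, which encodes p19, fell by 0.40 ± 0.14 (limma, adjusted p = 0.00604 and 0.0425). Of all genes 18.1% were called higher and 4.73% lower there. Of 16 p53 targets, 1 was called at any stage, near the 4.73% of all genes called lower in involution. Bbc3, a promoter of apoptosis, fell by 0.69 ± 0.23 in involution against lactation (adjusted p = 0.0392). Of 14 early growth genes, 1 was called between stages, beside 6.49% of all genes lower in lactation and 18.1% higher in involution. Hgf, hepatocyte growth factor, fell by 0.58 ± 0.09 in lactation and rose by 0.57 ± 0.09 in involution (adjusted p = 0.000437 and 0.000226). Hgf was 4.12 to 5.65 TPM in nulliparous mice, 2.19 to 3.62 TPM in lactating mice and 4.15 to 5.32 TPM in involution mice, so the lactating mice lay under all the others. Of the same 14 genes, 7 were lower at 200 and above than under 200, beside 9.14% of all genes, the immediate early genes Fos and Egr1 by 3.71 ± 0.28 and 4.43 ± 0.33 on the log2 scale (limma; these 2 were picked out after their values were seen).

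Dividing cells in whole liver need not be hepatocytes, so markers of other cells were set beside the G2/M genes. The 14 leukocyte markers, summed, ran from 156 to 285 TPM in nulliparous mice, 106 to 199 TPM in lactating mice and 333 to 421 TPM in involution mice. At 200 and above their sum was 253 to 285 TPM in nulliparous and 147 to 199 TPM in lactating mice. Under 200 it was 156 to 206 TPM in nulliparous and 106 to 145 TPM in lactating mice. Of the 13 tested, 6 were lower in lactation, beside 6.49% of all genes, and 11 higher in involution than in lactation, beside 18.1%, the opposite direction to the G2/M genes. Endothelial markers (6 genes) ran the same way as the leukocyte markers, with 113 to 152, 65.2 to 120.2 and 159 to 175 TPM. The 7 stellate cell markers were likewise lowest in lactation, at 145 to 186, 104 to 122 and 140 to 177 TPM, without overlap between lactating mice and the others. The 9 erythroid markers found, of which the globin genes were the most abundant, ran in sum from 1147 to 2410 TPM in nulliparous mice, 1333 to 3338 TPM in lactating mice and 199 to 851 TPM in involution mice. Of the 7 tested, none was called in lactation and 5 were lower in involution, in the direction of the G2/M genes and beside 4.73% of all genes. By range of animal number, their sum was 1147 to 2410 TPM in nulliparous and 2255 to 3338 TPM in lactating mice of 200 and above, and 1303 to 2013 TPM and 1333 to 1940 TPM in those under 200. The sums of the stages overlapped by 1 nulliparous mouse at 200 and above and along most of their range under 200, and 1 of the 7 was called in the interaction of stage and range. Slc4a1, the anion exchanger of the red cell membrane, was listed at no more than 0.35 TPM in any mouse and at 0 in all 6 involution mice. The part of erythroid cells in these changes of the G2/M genes was not tested.

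**Figure D5:**
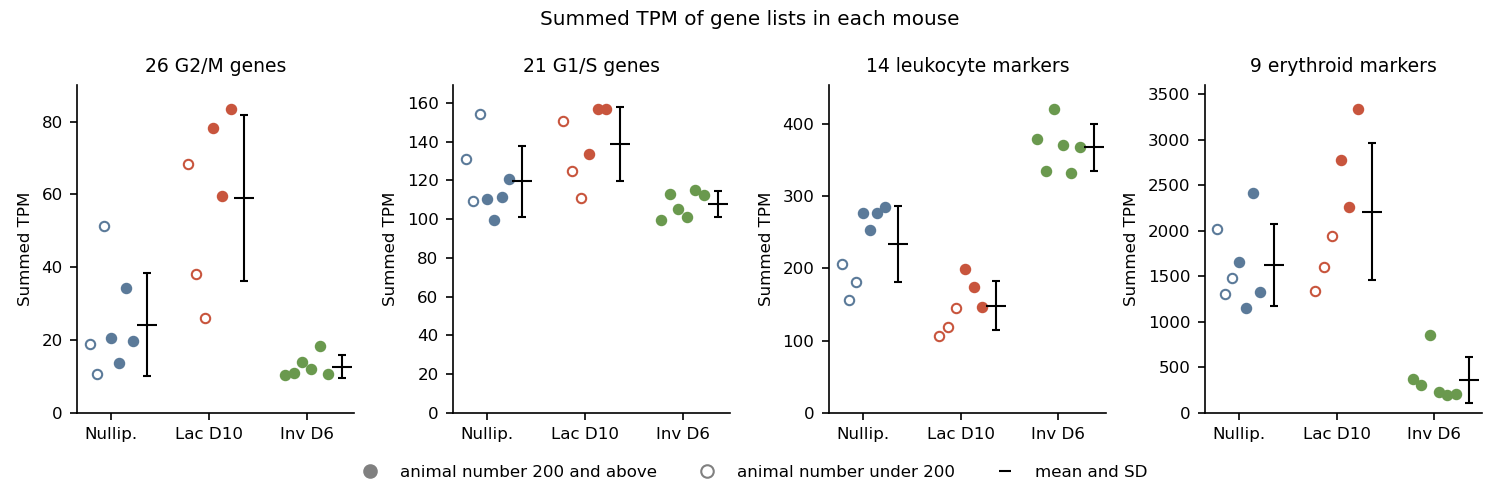
Summed TPM of the 26 G2/M genes, the 21 G1/S genes, 14 leukocyte markers and 9 erythroid markers in each mouse by stage; open points have animal numbers under 200, filled points 200 and above, and bars give the mean and SD. The G2/M sum reaches 83.5 TPM in lactation and at most 18.3 TPM in involution, the leukocyte sum is lowest in lactation, and the erythroid sum is lowest in involution.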

How the data were processed

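Poly(A) RNA from frozen liver of 19 mice was sequenced by the authors, who aligned the reads to mm10 (GRCm38) and quantified them per gene with RSEM 1.3.1 (submitters' processing notes). The deposited values are TPM per mouse, rounded to 2 decimals and not pooled. TPM keeps no read depth, so the depth behind each value is unknown and counting intervals cannot be given. Here log2(TPM + 1) was fitted with limma 3.58.1 (trend) in R 4.3.3 over all 19 mice. Genes whose mean over the mice was under 0.1 TPM were left out, leaving 16230. Changes are limma estimates on that scale, ± is the SE there and p-values were adjusted by Benjamini-Hochberg over all tested genes, with 0.05 as the threshold. A fold on this scale understates the change of low genes. The ranges of animal number were compared in the nulliparous and lactating mice with stage as a covariate. P-values measure the spread between mice, whose independence of litter or cage the labels do not state. The fits were tested on simulated data, in which each gene had the same spread at all stages and changed genes had a mean log2(TPM + 1) above 1. Many G2/M genes lay under that level, so the simulation does not cover them.

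The members and gene lists were chosen with earlier results of these data known. Genes are named where they were called in a stage comparison, were the highest or lowest of their phase, or belong to a set list of cyclins, MCM genes, Foxm1, Mki67, Top2a, Cdk1, Pcna, Rrm2 and the inhibitors; of each further list, at most the 5 called genes with the smallest adjusted p. Alternatives covered the pseudocount, filter, scaling, samples in the fit, range of animal number as a covariate, robust moderation and leaving out each mouse. Gene positions are from GENCODE M21 (GRCm38).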

Additional observations from a re-analysis of the deposited data

Results flagged for a closer look

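Within a stage, a mouse was marked when its gap to the nearest other mouse took up a larger share of the stage's whole range than Dixon's 95% critical value. Of 147 gene and stage groups tested, 20 held such a mouse. Chance gives about 1 in 20 for independent groups, but these genes were read in the same mice, so the groups are not independent. Nulliparous mouse NUL_13 was the high one in E2f1 (gap share 0.671), Ccna2 (0.642), Cdk1 (0.615), Cdc25c (0.647), Cdca3 (0.621), Cdca8 (0.655), Aurkb (0.636), Bub1 (0.569), Birc5 (0.571) and Gins2 (0.610). Involution mouse ID6_230 was the high one for Cenpf (0.885), Cdk1 (0.695), Gins2 (0.670), Mki67 (0.644) and Ccna2 (0.638). The remaining mice were low ones in Ccne2 (lactating mouse LAC_133, 0.684) and Kif23 (nulliparous mouse NUL_4, 0.800), and high ones in Mybl2 (nulliparous mouse NUL_221, 0.720, and involution mouse ID6_209, 0.740) and Rrm1 (lactating mouse LAC_213, 0.706).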

How the results depend on the processing

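No paired analysis was possible because the stages share no animal numbers. Of 17 genes called higher in lactation than in nulliparous mice, the count was 9 with a filter at a mean of 1 TPM (29 genes tested), beside 393 of all 11606 genes. It was 9 with only the 2 stages compared in the fit, beside 304 of 16179. With only mice numbered under 200 it was 0, beside 310 of 16265. With a log2 change of at least 1 as a further demand it was 3, beside 70 of 16230. Of 25 called lower in involution than in lactation, the count was 15 with the filter at 1 TPM, beside 639 of all 11606 genes. It was 11 with the demand on the change, beside 147 of 16230. With only the 2 stages in the fit, 1 gene (Cdkn1a) was called higher in involution than in lactation, beside 2983 of 16127. Against nulliparous mice, 3 genes were called lower in involution with a pseudocount of 0.1, beside 145 of 16230. Between ranges of animal number, the 2 genes higher became 1 at the filter of 1 TPM, and the 1 gene lower became 2 there and 2 with median-ratio scaling, Mcm6 being added. Of all 11535 genes at that filter, 2542 were called higher and 1294 lower, and 1945 of 16158 were lower under that scaling. Leaving out each mouse gave 12 to 23 genes higher in lactation, 21 to 28 lower and 0 higher in involution, 0 to 1 higher in involution than in nulliparous mice (Ccne1), and 2 to 9 higher and 1 to 2 lower at 200 and above. No called change reversed in any of these. Median-ratio scaling moved the median change of all genes in involution against lactation from 0.10 to -0.01. The cause of these differences was not tested, apart from fewer genes under the stricter filter and fewer mice in the fits of part of them. Values near 0.01 TPM are limited by the rounding.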
